A study of Homo sapiens with 19 samples.

Results

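The 10 genes described here encode subunits of polycomb repressive complex 2 (PRC2), and were taken from the RNA-seq tables as the rows whose symbol is EZH1, EZH2, EED, SUZ12, RBBP4, RBBP7, JARID2, AEBP2, MTF2 or PHF19. Each symbol had 1 row, so 10 of 33382 listed genes were found. The samples came from H1 cells, an established human embryonic stem cell (hESC) line. There were 2 samples each of wild-type (WT) H1 cells, of 4 single knockouts (EED-/- H1, SUZ12-/- H1, EZH2-/- H1, EZH1-/- H1) and of the double knockout EZH2-/-/EZH1-/- H1, for none of which the labels name doxycycline (DOX). A further line, H1-EED-/-/EED-OE, lacks its own EED and carries an EED transgene that is expressed under DOX; its labels call it an inducible EED knockout. This line gave 1 DOX sample, whose title also names day 28, and 1 sample a day at days 8, 12, 16, 20, 24 and 28 of DOX withdrawal, 19 samples in all. The knockouts were made by CRISPR/Cas9 with a drug-resistance cassette that replaces a functional domain. Within a knockout line the sample titles differ in clone or passage, and nothing says that the WT samples came from separate cultures, so p-values measure the spread between these samples only. The lines EED-/-, SUZ12-/- and EZH2-/-/EZH1-/-, described by the study as without H3K27me3, are called PRC2-null, and WT, EZH1-/- and EZH2-/- are called retaining lines.

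PRC2 places methyl groups on lysine 27 of histone H3, and the trimethylated form, H3K27me3, marks silent developmental genes. EZH1 and EZH2 are its alternative catalytic subunits, EED binds the mark and stimulates catalysis, SUZ12 is the scaffold, and RBBP4 and RBBP7 bind histones and also belong to other chromatin complexes. The accessory subunits define forms of the complex: MTF2 and PHF19 are Polycomb-like proteins that help recruit PRC2 to CpG islands, while JARID2 and AEBP2 form a separate variant and bind nucleosomes. In pluripotent stem cells the complex keeps lineage genes silent.

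Values are TPM, the length-normalised share of each gene among the transcripts of a sample, so levels can be compared between genes. All 10 genes were above 1 TPM in each of the 19 samples (6.78 to 238.07 TPM) and entered each test. The TPM give no read counts, so the depth behind them is unknown. Against WT, the second EZH2-/- and the second EZH2-/-/EZH1-/- sample were low in AT-rich and in long transcripts, and the DOX sample more so; the EZH1-/- samples leaned the same way. In the DOX sample, the most GC-rich genes exceeded the least GC-rich by 1.05 in median log2 difference from WT, and the longest differed from the shortest by -0.65 (outer quintiles). Most PRC2-null samples tilted the other way in length. The longest exceeded the shortest by 0.671 and 0.565 in EED-/- and by 0.291 and 0.251 in SUZ12-/- H1 cells. In the first EZH2-/-/EZH1-/- sample they did so by 0.45. The day 12 sample had a GC difference of 0.616. EED and SUZ12 lie at GC percentiles 3.0 and 5.2 of all genes, and RBBP4 at length percentile 89.6, so results are also given with GC and length centred. The label of a stem cell was checked against 8 pluripotency markers, which summed to 5848.17 to 7054.13 TPM in the 6 samples of the retaining lines and to 191.92 to 523.42 TPM in the 6 PRC2-null samples. In bulk RNA, fewer cells of a type and less RNA per cell cannot be told apart.

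In WT H1 cells the histone-binding subunits were the most abundant transcripts of the complex. RBBP4 had a mean of 225.6 ± 3.90 TPM and RBBP7 of 133 ± 7.58 TPM, followed by JARID2 at 113 ± 9.26, MTF2 at 66.1 ± 2.16, EZH2 at 56.7 ± 3.07, AEBP2 at 34.7 ± 7.18, SUZ12 at 26.6 ± 1.90, PHF19 at 22.6 ± 1.44, EED at 19.6 ± 3.30 and EZH1 at 14.0 ± 0.410 TPM (SD, n = 2 each). In this order, the WT samples of neighbouring genes overlapped for PHF19 and EED. In SUZ12-/- H1 cells JARID2 stood at rank 8 of 10, where it had stood at rank 3 in WT, with a mean of 19.2 ± 1.19 TPM (SD, n = 2). The 10 genes summed to 706.72 and 715.92 TPM in WT and to 278.48 to 468.38 TPM in the PRC2-null samples.

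**Figure D1:**
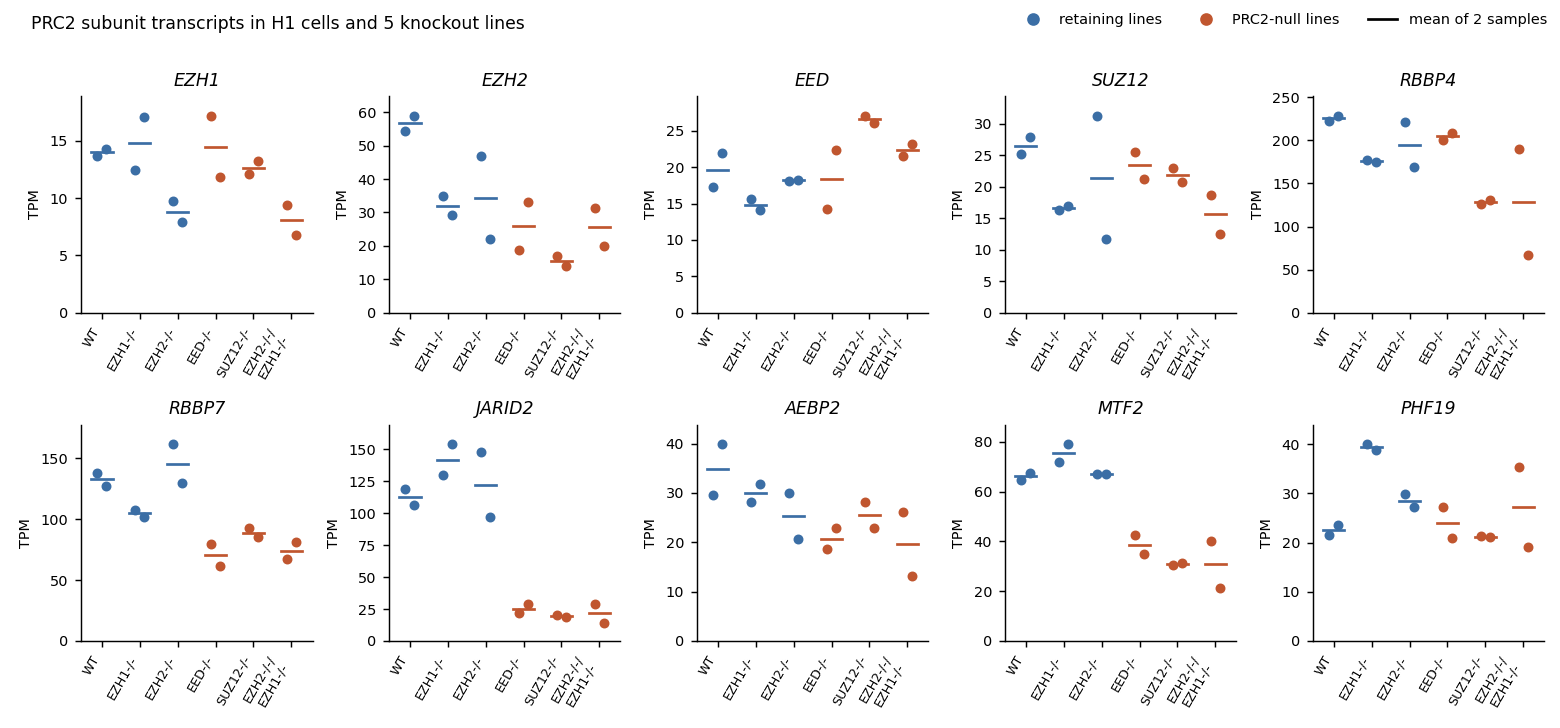
TPM of each subunit (vertical axes, from 0) in the 2 samples of each of 6 lines, with a bar at the mean; retaining lines are blue and PRC2-null lines orange. JARID2 lies between 14.19 and 28.99 TPM in the PRC2-null samples and between 97.33 and 153.96 TPM in the others, while SUZ12 and EZH1 overlap between the groups.

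The targeted genes were read first, since they would check the labels. EED had 14.25 and 22.36 TPM in EED-/- H1 cells and 17.30 and 21.96 TPM in WT. SUZ12 had 22.94 and 20.76 TPM in SUZ12-/- H1 cells, against 25.21 and 27.89 TPM in WT. EZH1 had 12.49 and 17.07 TPM in EZH1-/- H1 cells, against 13.71 and 14.29 TPM in WT, and 9.37 and 6.78 TPM in EZH2-/-/EZH1-/- H1 cells. EZH2 had 46.94 and 22.02 TPM in EZH2-/- H1 cells and 31.28 and 20.03 TPM in EZH2-/-/EZH1-/- H1 cells, against 54.55 and 58.89 TPM in WT. Transcripts of each targeted gene were therefore listed in its own knockout. A value for the whole gene does not tell transcripts with the deleted part from those without it, so these values check neither the deletions nor the labels. For the same reason a level of a targeted gene in its own line is not a level of a functional subunit. The study itself checked the deletions by genomic PCR and qRT-PCR, and EZH1, EZH2 and SUZ12 also by western blot.

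The comparison of each knockout line with WT asks which subunit transcripts moved when another subunit was removed. It was made with limma on log2(TPM + 1) in 1 fit over 19100 genes, and genes with an adjusted p (Benjamini-Hochberg) of 0.01 or less were called. None of the 10 subunits was called in EZH1-/- or EZH2-/- H1 cells, where 0.11% and 0.0% of all genes were called. At an unadjusted p under 0.05 there was 1 subunit in each. The share of all genes at that threshold is not given here, so this count is no result about the subunits. PHF19 had 39.96 and 38.73 TPM in EZH1-/- H1 cells against 21.55 and 23.59 TPM in WT, a log2 difference of 0.78 (limma, 95% interval 0.18 to 1.38, adjusted p = 0.201). EZH1 had 9.72 and 7.92 TPM in EZH2-/- H1 cells, a log2 difference of -0.62 (95% interval -1.22 to -0.01, limma, adjusted p = 0.848). The paralogue of a removed catalytic subunit was not called higher by this test in either line: EZH2 had 34.80 and 29.20 TPM in EZH1-/- H1 cells, both below WT, a log2 difference of -0.81 (95% interval -1.63 to 0.005, limma, adjusted p = 0.315). When the EZH1-/- and WT samples were fitted alone, with the spread taken from these 4 samples, EZH2 (lower) and PHF19 (higher) were called, where that fit called 13.1% of all genes (6.48% lower and 6.63% higher) against 0.11% in the fit over all lines.

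In the PRC2-null lines the calls were in accessory and histone-binding subunits and in EZH2, each of them lower. In EED-/- H1 cells 2 of 10 subunits fell, JARID2 and RBBP7, where 11.8% of all genes tested fell and 24.7% rose. In SUZ12-/- H1 cells 3 fell, JARID2, EZH2 and MTF2, where 11.6% of all genes fell and 21.3% rose. In EZH2-/-/EZH1-/- H1 cells 3 fell, JARID2, MTF2 and RBBP7, where 11.3% of all genes fell and 18.1% rose. No subunit rose in any of these lines. The median log2 difference of the 10 subunits was -0.45, -0.50 and -0.84 in that order of lines, beside 0.36, 0.22 and 0.19 for all genes. Of these calls JARID2 passed the fold change of 3 that the study set in each of the 3 lines, and EZH2 in SUZ12-/- H1 cells. Without either WT sample, JARID2 was the 1 subunit called in each of the 3 lines, as it was without either SUZ12-/- sample in that line and without the second EED-/- sample in that line. In these fits 5.5 to 8.87% of all genes fell. MTF2 in SUZ12-/- and RBBP7 in EZH2-/-/EZH1-/- H1 cells also lost their calls without either EZH1-/- sample, and RBBP7 there without either SUZ12-/- or the first EZH2-/-/EZH1-/- sample. Without the second EZH2-/- and the second EZH2-/-/EZH1-/- sample, 5 subunits fell in EED-/- H1 cells (AEBP2, EZH2 and MTF2 added), where 17.7% of all genes fell, and 5 in SUZ12-/- H1 cells (RBBP4 and RBBP7 added), where 18.7% of all genes fell.

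The PRC2-null lines were then compared with the retaining lines as groups, 6 samples against 6, in the same fit. The contrast was between the means of 3 lines on each side, with the spread taken between samples of a line. Differences between the lines of a group therefore do not enter its p-values. Of the 10 subunits, 4 fell (EZH2, JARID2, MTF2 and RBBP7) and 0 rose, where 20.1% of all genes tested fell and 36.8% rose. The median log2 difference of the 10 subunits was -0.45, that of all genes 0.29. Scaling by median ratios lowered the median of all genes to 0.16, and differences are also given below relative to the median of 0.29. Under that scaling 7 subunits fell (AEBP2, PHF19 and RBBP4 added) and 0 rose, and the same 7 fell with GC and length centred or without the first EZH2-/-/EZH1-/- sample. The share of all genes that fell was 24.3%, 26.0% and 22.6% under these 3 alternatives. When the samples were instead fitted as 2 groups of 6, without lines, JARID2 kept its call. In that fit 16.6% of all genes fell and 30.1% rose.

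JARID2 (ENSG00000008083; GRCh38 chr6:15246069-15522042), the accessory subunit that binds nucleosomes, showed the largest difference of the 10. It had 119.24 and 106.14 TPM in WT, 130.21 and 153.96 TPM in EZH1-/-, and 147.72 and 97.33 TPM in EZH2-/- H1 cells. It had 21.93 and 28.80 TPM in EED-/-, 20.08 and 18.40 TPM in SUZ12-/-, and 28.99 and 14.19 TPM in EZH2-/-/EZH1-/- H1 cells. Each PRC2-null sample lay below each retaining sample. The log2 difference between the groups was -2.48 ± 0.18 (SE, limma, adjusted p = 5.37e-07), or -2.77 relative to the median of all genes. It was -2.12 ± 0.31 in EED-/-, -2.49 ± 0.31 in SUZ12-/- and -2.41 ± 0.31 in EZH2-/-/EZH1-/- H1 cells against WT (SE, limma, adjusted p = 0.000239, 8.95e-05 and 0.000134). An antisense gene, JARID2-AS1, overlaps it, and the library kit does not mark strand; JARID2-AS1 was listed at 0.00 to 1.35 TPM, so its own level was small beside that of JARID2.

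MTF2 (ENSG00000143033; chr1:93079235-93139079), a Polycomb-like subunit, had 64.59 and 67.64 TPM in WT, 72.13 and 79.01 TPM in EZH1-/-, and 67.28 and 67.23 TPM in EZH2-/- H1 cells. It had 42.41 and 35.02 TPM in EED-/-, 30.68 and 31.53 TPM in SUZ12-/-, and 40.05 and 21.49 TPM in EZH2-/-/EZH1-/- H1 cells, again with no overlap between the groups. The log2 difference was -1.06 ± 0.15 (SE, limma, adjusted p = 7.49e-05), or -1.35 relative to the median of all genes. PHF19 (ENSG00000119403; chr9:120855651-120894896), the other Polycomb-like subunit, overlapped between the groups. It had 29.84 and 27.25 TPM in EZH2-/-, 27.18 and 20.92 TPM in EED-/-, 21.27 and 21.16 TPM in SUZ12-/-, and 35.34 and 19.04 TPM in EZH2-/-/EZH1-/- H1 cells, and its log2 difference was -0.30 (95% interval -0.65 to 0.04, limma, adjusted p = 0.107).

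AEBP2 (ENSG00000139154; chr12:19404045-19720801), which pairs with JARID2 in the same variant, had 29.66 and 39.82 TPM in WT, 28.19 and 31.88 TPM in EZH1-/-, and 29.95 and 20.67 TPM in EZH2-/- H1 cells. It had 18.63 and 22.83 TPM in EED-/-, 28.13 and 22.85 TPM in SUZ12-/-, and 26.11 and 13.17 TPM in EZH2-/-/EZH1-/- H1 cells, which overlap the retaining lines. The log2 difference was -0.45 (95% interval -0.86 to -0.04, limma, adjusted p = 0.0499), short of the threshold of 0.01. With GC and length centred it was -0.73 (limma, adjusted p = 0.000157).

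Of the histone-binding subunits, RBBP7 (ENSG00000102054; chrX:16839283-16870362) fell. It had 138.07 and 127.35 TPM in WT, 107.78 and 102.25 TPM in EZH1-/-, and 161.55 and 129.46 TPM in EZH2-/- H1 cells. It had 79.78 and 61.72 TPM in EED-/-, 92.87 and 85.33 TPM in SUZ12-/-, and 67.50 and 81.03 TPM in EZH2-/-/EZH1-/- H1 cells, below each retaining sample. The log2 difference was -0.70 ± 0.11 (SE, limma, adjusted p = 0.000191), or -0.99 relative to the median of all genes. RBBP4 (ENSG00000162521; chr1:32651142-32686211) had 222.84 and 228.35 TPM in WT, 177.65 and 174.80 TPM in EZH1-/-, and 221.61 and 168.75 TPM in EZH2-/- H1 cells. In the PRC2-null lines it had 200.86 and 208.97 TPM in EED-/-, 126.52 and 130.94 TPM in SUZ12-/-, and 189.59 and 66.97 TPM in EZH2-/-/EZH1-/- H1 cells, the widest spread of any subunit in any line. Its log2 difference was -0.45 (95% interval -0.91 to 0.01, limma, adjusted p = 0.0734). It was -0.70 without the first EZH2-/-/EZH1-/- sample and -0.21 without the second, the library low in AT-rich and long transcripts. RBBP4 and RBBP7 are close paralogues, and RBBP4, SUZ12, EZH2 and EED have pseudogenes that the tables do not list, so how reads were shared among such copies is uncertain.

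EZH2 (ENSG00000106462; chr7:148807257-148884321) was the catalytic subunit that fell. It had 18.68 and 33.06 TPM in EED-/- and 16.90 and 13.96 TPM in SUZ12-/- H1 cells, the PRC2-null lines in which it was not targeted, and these 4 samples lay below both WT samples. EZH1-/- H1 cells, a retaining line in which EZH2 was not targeted, had 34.80 and 29.20 TPM of EZH2. These values too were below WT, and they overlapped those of EED-/- H1 cells. The groups also hold lines in which EZH2 was targeted, EZH2-/- among the retaining and EZH2-/-/EZH1-/- among the PRC2-null lines. Over the groups the log2 difference was -0.84 ± 0.21 (SE, limma, adjusted p = 0.00478), or -1.13 relative to the median of all genes, but the retaining lines from 22.02 TPM and the PRC2-null lines up to 33.06 TPM overlapped. Its adjusted p ran from 0.0103 to 0.0176 (limma) without either WT sample, either EZH1-/- sample, the first EZH2-/-, the first EED-/-, the second SUZ12-/- or the second EZH2-/-/EZH1-/- sample, each left out in turn. EZH1 (ENSG00000108799; chr17:42700275-42745049) had 17.18 and 11.85 TPM in EED-/- H1 cells, on either side of WT (13.71 and 14.29 TPM). In SUZ12-/- H1 cells EZH1 had 12.10 and 13.26 TPM, both below WT. Its log2 difference over the groups was -0.10 (95% interval -0.45 to 0.25, limma, adjusted p = 0.607). That value too includes lines in which the gene was targeted, EZH1-/- and EZH2-/-/EZH1-/-.

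The remaining core subunits, EED and SUZ12, did not pass the test between the groups. For each of them, its own knockout line is among the PRC2-null samples of that test. EED (ENSG00000074266; chr11:86201212-86278813) had 15.64 and 14.04 TPM in EZH1-/-, 18.16 and 18.30 TPM in EZH2-/-, 27.03 and 26.08 TPM in SUZ12-/-, and 21.51 and 23.23 TPM in EZH2-/-/EZH1-/- H1 cells. Its log2 difference was 0.32 (95% interval 0.01 to 0.63, limma, adjusted p = 0.0643), which is 0.03 relative to the median of all genes. SUZ12 (ENSG00000178691; chr17:31937007-32001038) had 16.23 and 16.93 TPM in EZH1-/-, 31.24 and 11.65 TPM in EZH2-/-, 25.57 and 21.21 TPM in EED-/-, and 18.64 and 12.55 TPM in EZH2-/-/EZH1-/- H1 cells, and its log2 difference was -0.04 (95% interval -0.51 to 0.44, limma, adjusted p = 0.887). Among the 3 PRC2-null lines no subunit differed by limma's F test, where 9.11% of all genes did. At an unadjusted p under 0.05, for which the share of all genes is not given here, there was 1 subunit, EZH1 (0.0417, limma, adjusted p = 0.125). EZH1 is itself targeted in EZH2-/-/EZH1-/- H1 cells. Without the first EZH2-/-/EZH1-/- sample, or without both libraries low in AT-rich and long transcripts, RBBP4 differed among these lines, where 23.4% and 17.7% of all genes did.

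**Figure D2:**
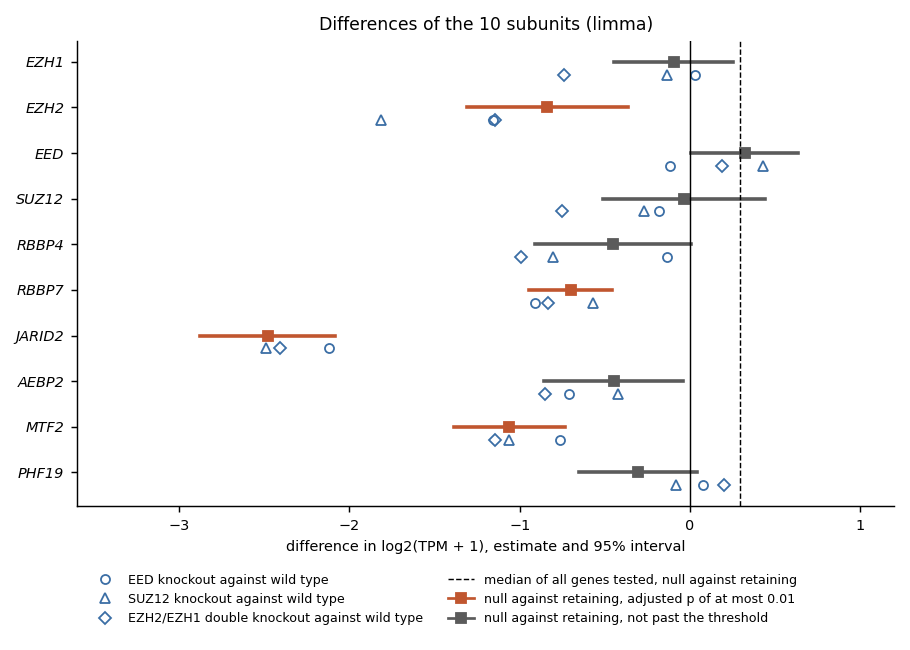
Difference in log2(TPM + 1) of each subunit (horizontal axis): squares with bars give the PRC2-null against the retaining lines with the 95% interval, open symbols each PRC2-null line against WT, and the dashed line the median of all genes. JARID2 lies at -2.48, MTF2 at -1.06, EZH2 at -0.84 and RBBP7 at -0.70, and EED at 0.32 lies beside the median of 0.29.

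The sequences before the annotated starts of the 4 subunits that fell are shown, since these genes moved in the same direction. They come from RefSeq promoter windows (GRCh38.p14, 15 windows for the 10 genes). Each printed stretch begins 250 bases before the RefSeq start and ends there or, if earlier, before the GENCODE gene start, 5′ to 3′. Capitals mark CCAAT, or ATTGG on the other strand, and would mark the E2F words TTTCCCGC, TTTCGCGC, TTTGCCGC and TTTGGCGC and their reverse complements.

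JARID2, chr6:15245819-15246068, plus strand: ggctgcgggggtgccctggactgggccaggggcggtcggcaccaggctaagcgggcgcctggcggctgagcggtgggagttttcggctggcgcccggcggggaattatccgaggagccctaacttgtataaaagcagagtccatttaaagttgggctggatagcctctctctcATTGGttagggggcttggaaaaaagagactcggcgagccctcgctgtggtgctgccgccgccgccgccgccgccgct

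MTF2, chr1:93079033-93079234, plus strand: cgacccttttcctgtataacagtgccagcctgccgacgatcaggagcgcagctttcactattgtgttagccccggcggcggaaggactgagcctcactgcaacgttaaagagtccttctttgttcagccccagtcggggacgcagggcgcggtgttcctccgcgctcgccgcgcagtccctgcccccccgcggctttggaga

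EZH2, chr7:148884322-148884541, minus strand: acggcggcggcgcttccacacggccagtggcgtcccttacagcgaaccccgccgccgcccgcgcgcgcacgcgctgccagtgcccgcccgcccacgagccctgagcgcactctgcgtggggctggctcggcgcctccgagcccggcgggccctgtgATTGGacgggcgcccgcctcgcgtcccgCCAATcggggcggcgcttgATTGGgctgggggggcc

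RBBP7, chrX:16870363-16870612, minus strand: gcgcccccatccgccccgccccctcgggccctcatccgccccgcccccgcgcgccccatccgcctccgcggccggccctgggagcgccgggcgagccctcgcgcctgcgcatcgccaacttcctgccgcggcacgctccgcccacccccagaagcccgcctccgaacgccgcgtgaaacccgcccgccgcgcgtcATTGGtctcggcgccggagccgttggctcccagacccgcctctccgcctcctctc

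Words were counted over the full 250 bases before each RefSeq start, so that all windows have the same length, also where the printed stretch is shorter. CCAAT is found in 32.0% of 35116 such windows, and in 10 of the 15 windows of the subunits. As printed, the stretch of EZH2 holds 3 copies, those of RBBP7 and JARID2 1 each and that of MTF2 0. An E2F word is in 2.79% of all windows and in 4 of the 15, those of AEBP2, EZH1, SUZ12 and the second of PHF19, and is in none of the stretches shown. GGGCGG, on either strand, is in 42.6% of all windows and in 12 of the 15. A match in these letters is a description of the window and not of binding.

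Since alternative subunits share places in the complex, their relative abundance was compared as a share of TPM. MTF2 and PHF19 made up 36.6 and 38.5% of the TPM of the 4 accessory subunits in WT, 41.4 and 38.8% in EZH1-/-, and 35.3 and 44.5% in EZH2-/- H1 cells. They made up 63.2 and 52.0% in EED-/-, 51.9 and 56.1% in SUZ12-/-, and 57.8 and 59.7% in EZH2-/-/EZH1-/- H1 cells, each above each retaining sample. The means were 56.8 ± 4.42% and 39.2 ± 3.31% (SD, n = 6 each), a difference of 17.6 percentage points (two-sided exact permutation test, p = 0.002165, the smallest it can give; 0.006494 adjusted over 3 shares). JARID2 is in the denominator, so this share is not independent of the fall of JARID2, and the test treats the 2 samples of a line as separate draws, which they may not be. Over the means of lines, 3 against 3, an exact permutation test cannot reach 0.05 (adjusted p = 0.3).

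The share of EZH1 in EZH1 plus EZH2 was 20.1 and 19.5% in WT, 47.9 and 26.4% in EED-/- and 41.7 and 48.7% in SUZ12-/- H1 cells, the lines in which neither gene was targeted. These 4 samples lay above WT, a comparison of 2 with 4 samples that cannot reach 0.05. Over all 12 samples the means were 35.5 ± 11.9% and 24.4 ± 7.20% (SD, n = 6 each; two-sided exact permutation test, p = 0.07792, adjusted p = 0.1169). The share of RBBP7 in RBBP4 plus RBBP7 differed among PRC2-null lines more than between the groups. It was 28.4 and 22.8% in EED-/-, 42.3 and 39.5% in SUZ12-/-, and 26.3 and 54.8% in EZH2-/-/EZH1-/- H1 cells, against 35.8 to 43.4% in the retaining lines (difference of means -3.38 points, two-sided exact permutation test, p = 0.5519 before and after adjustment). The value of 54.8% is from a library low in AT-rich and long transcripts, in which RBBP4, at length percentile 89.6, had 66.97 TPM.

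The time course after DOX withdrawal asks when the subunit transcripts moved once the EED transgene was switched off. EED had 108.54 TPM with DOX, 5.53 times the WT mean of 19.6 TPM, and 18.27, 17.49, 13.66, 12.64, 21.61 and 31.56 TPM at days 8, 12, 16, 20, 24 and 28. EED was 5.94 times lower at the first day measured than with DOX, and EED at the last day was above both WT samples. Transcripts of the targeted gene and of the transgene are not told apart by these values.

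JARID2 had 52.33 TPM with DOX, 88.78 and 116.57 TPM at days 8 and 12, and 59.69, 33.62, 22.23 and 32.65 TPM at days 16, 20, 24 and 28. It was within the WT range at day 12 and, at day 24, within the range of the PRC2-null samples. RBBP7 had 128.69 TPM with DOX and 127.44, 104.63, 95.52, 81.33, 66.44 and 61.90 TPM at the 6 days, lower at each day than at the one before. MTF2 had 32.59 TPM with DOX and 60.02, 64.99, 54.78, 47.51, 36.84 and 33.40 TPM, lower at each day from day 12 on. The DOX sample was past 1.5-fold below the WT mean for 6 subunits, where 23.2% of all genes were. The log2 difference was -1.10 for AEBP2, -1.09 for JARID2, -0.998 for MTF2, -0.99 for RBBP4, -0.78 for SUZ12 and -0.63 for EZH2. It is also the library lowest in AT-rich and long transcripts. With GC and length centred, JARID2 at -0.80 was the 1 subunit still past 1.5-fold below WT (12.1% of all genes), while AEBP2 was at -0.45, MTF2 at -0.40, RBBP4 at -0.36 and SUZ12 and EZH2 at -0.11.

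The slope over the 6 days was tested with limma over 17099 genes, with day as a number. No subunit passed an adjusted p of 0.01, where 2.03% of all genes did (1.36% rose and 0.667% fell). An unadjusted p under 0.05 was reached by 4 subunits, and the share of all genes at that threshold is not given here. At an adjusted p of 0.05, where 7.42% of all genes fell and 12.4% rose, 3 subunits fell. The fitted log2 change from day 8 to day 28 was -2.13 ± 0.48 for JARID2, -1.05 ± 0.22 for RBBP7 and -0.96 ± 0.26 for MTF2 (SE, n = 6 samples, limma, adjusted p = 0.0255, 0.022 and 0.0398). With a day left out, RBBP7 and JARID2 passed 0.05 without day 16 or day 20 and not without day 8, 12, 24 or 28, and MTF2 did not pass without any of the 6 days. AEBP2 had 36.35, 42.20, 32.08, 27.28, 23.50 and 23.51 TPM, a fitted change of -0.82 ± 0.28 (SE, limma, adjusted p = 0.0786). The other 6 subunits had adjusted p from 0.235 to 0.726 (limma). The median slope of all genes was 0.14 and moved to 0.01 under scaling by median ratios.

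EZH2 had 36.26 TPM with DOX and 48.90, 42.73, 60.90, 58.50, 33.90 and 33.25 TPM at the 6 days, so the later pair of days lay below the 4 before. EZH1 had 15.93 TPM with DOX and 17.36, 17.43, 12.25, 13.14, 9.82 and 14.41 TPM. RBBP4 had 113.15 TPM with DOX and 215.51, 231.32, 238.07, 222.36, 231.28 and 193.41 TPM, close to WT until day 24. SUZ12 had 14.97 TPM with DOX and 26.95, 22.45, 24.62, 23.59, 19.29 and 17.85 TPM. AEBP2 had 15.52 TPM with DOX, below each day without it. PHF19 had 19.05 TPM with DOX and 15.48, 22.29, 17.77, 13.61, 46.10 and 16.09 TPM, with 1 high value at day 24 that neither neighbouring day shared.

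Single days have 1 sample and no test, and were counted past 1.5-fold on the log2(TPM + 1) scale. Against the DOX sample, 5 subunits were higher and 1 (EED) lower at day 8, where 27.5% of all genes were higher and 10.3% lower. At day 12 the counts were 4 and 1 (29.0 and 5.03% of all genes), at day 16 5 and 1 (27.2 and 11.7%), at day 20 4 and 3 (32.9 and 17.1%), at day 24 2 and 4 (37.3 and 21.5%), and at day 28 1 and 3 (44.7 and 20.8%). RBBP4 was higher at each of the 6 days and AEBP2 at days 8 to 20, while JARID2 and RBBP7 were lower at days 20, 24 and 28. EZH2 was higher at days 16 and 20. With GC and length centred, against the same DOX sample, RBBP4 and EZH2 were higher at none of the 6 days and AEBP2 at days 8 and 12. The counts higher and lower were then 2 and 1 at day 8 (17.6 and 13.1% of all genes), 2 and 2 at day 12 (15.1 and 10.7%), 0 and 3 at day 16 (16.0 and 14.7%), 0 and 4 at day 20 (23.3 and 22.4%), 1 and 4 at day 24 (29.0 and 26.9%), and 0 and 7 at day 28 (32.6 and 29.0%). With the mean of WT as the reference, RBBP4, AEBP2 and EZH2 were past 1.5-fold higher at none of the days either. At days 8 and 12 no subunit then passed 1.5-fold, where 21.1 and 21.9% of all genes were higher and 15.5 and 9.43% lower. At day 16 JARID2 was lower (10.9% of all genes; 16.1% higher). At day 20 JARID2, RBBP7, PHF19 and EED were lower (18.6%; 24.5% higher). At day 24 JARID2, RBBP7, MTF2 and EZH2 were lower (24.1%) and PHF19 higher (30.8%), and at day 28 the same 4 were lower (22.1%) and EED higher (38.3%). The comparisons with DOX share the DOX sample, and those with WT share the WT samples.

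The MTF2 and PHF19 share of accessory TPM was 43.2% with DOX and 37.6, 35.5, 44.2, 50.1, 64.5 and 46.8% over the days. The high value at day 24 holds the high PHF19 value. The RBBP7 share was 53.2% with DOX and 37.2, 31.1, 28.6, 26.8, 22.3 and 24.2%, and the EZH1 share 30.5% with DOX and 26.2, 29.0, 16.7, 18.3, 22.5 and 30.2%. The DOX sample is the library lowest in AT-rich and long transcripts, and its RBBP4 value was 113.15 TPM.

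Cell state moved with the same contrasts, and its part in the subunit values was not tested. The 8 pluripotency markers fell in the PRC2-null lines in 8 of 8, from POU5F1 with a log2 difference of -6.38 (2428.15 to 3456.09 TPM in retaining lines, 3.62 to 149.79 TPM in PRC2-null lines) to SALL4 with -0.89. NANOG changed by -5.06 and SOX2 by -3.54. Of 9 mesoderm and endoderm markers 9 rose over the groups, with AFP at 6.73, GATA4 at 5.98, SOX17 at 4.98, GATA6 at 4.93 and CNN1 at 1.25. CNN1 had 96.27 to 109.92 TPM in EED-/- and EZH2-/-/EZH1-/- H1 cells. In SUZ12-/- H1 cells it had 23.98 and 21.44 TPM, below both WT samples (28.15 and 32.79 TPM). AFP had 13208.42 and 13695.33 TPM in SUZ12-/- H1 cells and 162.52 to 767.99 TPM in the other PRC2-null lines. The 4 stromal markers rose, from DCN at 5.98 to COL3A1 at 11.59. Of 4 neural ectoderm markers tested, 2 rose (PAX6 at 4.08) and 1 fell (GFAP at -0.98); the 5th, SOX1, had at most 0.32 TPM in these lines. Over the days, POU5F1 had 2422.10, 3467.91, 3356.00, 1579.78, 46.24 and 33.56 TPM, and 2916.00 TPM with DOX.

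Between the PRC2-null and retaining lines, where 20.1% of all genes fell and 36.8% rose, proliferation genes and housekeeping genes moved too. Of 20 proliferation genes 19 fell, with AURKB, a mitotic kinase, at -3.42, while TYMS at -0.36 did not pass (limma, adjusted p = 0.0106). The list summed to 2160.36 to 3276.40 TPM in the retaining lines and 480.33 to 675.82 TPM in the PRC2-null ones. Over the days it summed to 2129.99, 2307.98, 2719.52, 2052.66, 1046.38 and 683.92 TPM. Of 10 housekeeping genes 4 rose and 4 fell, between B2M at 2.30 and HPRT1 at -2.26, with a median of 0.04. 

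RBBP4 and RBBP7 also serve other complexes, so 16 of their partners there were read beside them. Of these 10 fell and 0 rose between the PRC2-null and retaining lines, with a median of -0.59, where 20.1% of all genes fell and 36.8% rose. CHAF1A, the large subunit of the histone chaperone CAF-1, had the lowest difference (-3.07; 85.92 to 118.58 TPM against 7.83 to 19.35 TPM), and GATAD2B of the NuRD complex the highest (0.60, limma, adjusted p = 0.0145). HDAC1 at -0.47 and HDAC2 at -0.70, the deacetylases shared by NuRD and SIN3 complexes, both fell over the groups. In SUZ12-/- H1 cells HDAC1 had 97.50 and 99.24 TPM, between the WT samples (90.15 and 101.87 TPM). The other PRC2-null samples had 51.02 to 78.11 TPM of HDAC1.

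Among 4 other PRC2-associated genes tested, 2 rose and 0 fell between the PRC2-null and retaining lines, where 36.8% of all genes rose and 20.1% fell. EPOP, which binds the Polycomb-like form of PRC2, had 1.44 and 1.62 TPM in WT, 1.15 and 1.16 TPM in EZH1-/-, and 2.81 and 3.05 TPM in EZH2-/- H1 cells. It had 8.35 and 9.67 TPM in EED-/-, 5.99 and 7.34 TPM in SUZ12-/-, and 15.23 and 11.14 TPM in EZH2-/-/EZH1-/- H1 cells, a log2 difference of 1.88 ± 0.15 (SE, limma, adjusted p = 1.03e-06). In the inducible line it had 2.17 TPM with DOX and 10.67, 6.14, 6.74, 9.45, 9.85 and 8.62 TPM at days 8 to 28. At day 8, the first day measured, EPOP was above the DOX sample and both WT samples. JARID2, RBBP7 and MTF2 were then not below WT by 1.5-fold. Against the DOX sample, JARID2 (88.78 against 52.33 TPM) and MTF2 (60.02 against 32.59 TPM) were higher at day 8. RBBP7 had 127.44 against 128.69 TPM. The DOX sample is 1 library, low in AT-rich and long transcripts, and an order of these changes was not tested. LCOR at 1.05 also rose (limma, adjusted p = 0.00712), and LCORL had the lowest difference (-0.09, limma, adjusted p = 0.772). LCOR had 2.50 TPM in the second EZH2-/-/EZH1-/- sample, below both WT samples (3.68 and 3.88 TPM). The other PRC2-null samples had 7.17 to 15.02 TPM of LCOR. EZHIP, an inhibitor of the complex, was listed at 0.00 to 0.41 TPM in each of the 19 samples and was not tested.

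For the 9 subunits whose means over 13 groups spanned at least 1 on the log2(TPM + 1) scale, genes with the most similar pattern were sought by the root mean square difference of the log2 change from WT over the 12 other groups. The closest to JARID2 were VSIG10 (0.358), RP11-146I2.1 (0.367) and ZNF883 (0.378), and the closest to MTF2 were CAAP1 (0.170), DNAAF2 (0.171) and PRMT6 (0.191). LRPPRC lay at 0.130 from RBBP7, the smallest distance of all, followed by EIF3B (0.175) and SNRNP25 (0.178). RBBP4 had ZCCHC2 (0.177), NUPL1 (0.185) and ZSCAN5A (0.195), and AEBP2 had ZNF607, BAG4 and UPRT (0.204 each). EZH2 had YWHAH (0.248), CCDC88A (0.248) and C4orf46 (0.254), EZH1 had ABL1 (0.224), PTPRS (0.226) and RP11-347I19.8 (0.230), and PHF19 had TWF2 (0.303), CTDSPL (0.317) and NUDT2 (0.320). EED, whose highest value is the DOX sample, had no gene closer than RP11-298P3.4 (0.468), followed by INSL3 (0.551) and ASMTL-AS1 (0.552). SUZ12 spanned 0.81 and was not compared.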

How the data were processed

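RNA-seq libraries (TruSeq RNA, no strand information) had been mapped with Bowtie and quantified with RSEM against GRCh38, and the authors deposited 1 TPM column per sample for 33382 genes; columns sum to 999999.2 to 1000001.0, and depth is not given. The labels also name hg19. The edgeR test on counts that the study describes was not run, since TPM are not counts. Instead limma 3.58.1 (trend and robust eBayes) was run on log2(TPM + 1), which understates changes of low genes, keeping genes that reached 1 TPM in 2 or more samples, and tested on simulated data. Adjusted p-values cover all genes tested. Coordinates, GC and length are from GENCODE 44, matched by identifier (97.3% of genes). Named genes were the 10 members, the highest and lowest of each list, POU5F1, NANOG, SOX2, GATA4, GATA6 and SOX17, and the 3 nearest genes per member; EPOP, LCOR, HDAC1, HDAC2, TYMS, EZHIP and SOX1 within these lists were partly named after their values were seen. Members and lists were chosen with earlier results of these data known. Replicate numbers did not pair the samples. Alternatives were other scalings, filters, pseudocounts and thresholds, and samples left out; GC and length centring and leaving out both libraries that stand apart were chosen after seeing the data. No batch is named in the sources used here.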

Additional observations from a re-analysis of the deposited data

Results flagged for a closer look

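Subunits whose 2 samples all lay above both WT samples in some line and below both in another were looked at again. For JARID2, EZH1-/- H1 cells were above WT and the PRC2-null lines below it, and the log2 difference to EZH1-/- H1 cells was -2.45 in EED-/-, -2.82 in SUZ12-/- and -2.74 in EZH2-/-/EZH1-/- H1 cells (limma, adjusted p = 9.13e-05, 3.97e-05 and 6.35e-05). MTF2 showed the same, with -0.95, -1.25 and -1.33 (limma, adjusted p = 0.00925, 0.00222 and 0.00183). For PHF19, SUZ12-/- H1 cells were below WT and both single EZH lines above it. The difference was -0.86 against EZH1-/- (limma, adjusted p = 0.0237) and -0.41 against EZH2-/- H1 cells, which was not tested. EED was above WT in SUZ12-/- and below it in EZH1-/- H1 cells, with -0.80 for EZH1-/- minus SUZ12-/- (limma, adjusted p = 0.0206). The contrasts that gave these tests were chosen after the data were seen. No single sample stood apart by Dixon's test within the 6 retaining or the 6 PRC2-null samples for any subunit.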

How the results depend on the processing

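Depth is unknown, so these limits are settings of the analysis only. JARID2 kept its call under each alternative run, in the PRC2-null against the retaining lines and in each PRC2-null line. The number of subunits called in that group comparison, 4, became 7 with median-ratio scaling or with GC and length centring and 1 with a fold of 3. In EED-/- H1 cells (2 called) it was 5 with median-ratio scaling, with GC and length centring or without both libraries that stand apart, 4 at an adjusted p of 0.05, and 1 with a fold of 3. In SUZ12-/- H1 cells (3 called) it was 5 without both libraries or with that line and WT alone. In EZH2-/-/EZH1-/- H1 cells (3 called) it was 6 at an adjusted p of 0.05, 5 with GC and length centring, and 1 with a fold of 3 or with that line and WT alone. In EZH1-/- H1 cells (0 called) it was 2 with that line and WT alone. Among the PRC2-null lines (0 called) it was 1 without both libraries, and for the slope over days (0 called) it was 3 at an adjusted p of 0.05. The share of all genes that fell moved too. With a fold of 3 it was 5.09% for the groups, 6.09% in EED-/- and 5.66% in EZH2-/-/EZH1-/- H1 cells. At an adjusted p of 0.05 it was 3256 of 19100 genes and 17.4% in these lines. With a line and WT alone it was 23.5% in SUZ12-/- and 3.88% in EZH2-/-/EZH1-/- H1 cells. Median-ratio scaling gave 15.9% in EED-/- H1 cells. With GC and length centring it was 18.2% in EED-/- and 16.0% in EZH2-/-/EZH1-/- H1 cells. With each sample left out in turn, the number of subunits called moved for the groups, in each PRC2-null line and among these lines. The share of all genes called moved under the same fits. Where this left 1 sample in a line, it is assumed to vary like the others. With WT as the reference, the counts past 1.5-fold at days 8, 12, 16 and 20 went from 6, 5, 6 and 7 to 0, 0, 1 and 4. With GC and length centring they were 3, 3 and 4 at days 8, 16 and 20 (lower in 1, 3 and 4), and 7 (all lower) in place of 4 at day 28. With both changes they were 0, 0, 1 and 3 at days 8 to 20 and 8 at day 28. At days 8 and 12, 20.4 and 15.9% of all genes were then higher and 14.4 and 11.2% lower. The subunits counted at days 16 and 20 were lower, where 12.0 and 20.5% of all genes were lower (14.7 and 22.4% higher). At day 28, 1 subunit was higher and 7 lower, where 31.7% of all genes were higher and 26.9% lower. The MTF2 and PHF19 share differed by 17.6 points over means of lines (exact permutation test, adjusted p = 0.3). The cause of these changes was not tested. The fits with samples left out also rest on fewer samples. Of all genes called in EED-/- H1 cells, 67.6% were higher, and 57.1% with median-ratio scaling.

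Samples with the same replicate number did not deviate together (mean correlation -0.004 over 15 pairs of lines, -0.217 to 0.331), so the numbers do not pair them. A fit with the replicate number as a block changed no call of a subunit. It called 4 subunits in the PRC2-null against the retaining lines, where 20.1% of all genes fell. It called 2 in EED-/-, 3 in SUZ12-/- and 3 in EZH2-/-/EZH1-/- H1 cells, where 11.7, 11.4 and 11.1% of all genes fell. In EZH1-/- and EZH2-/- H1 cells it called 0 subunits, where 0.0524 and 0.0% of all genes were called.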
